A study of Rattus norvegicus with 6 samples.

Results

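The genes described here are 9 of the 16499 gene symbols in the table: Procr, Thbd, F3, Tfpi, Tfpi2, Serpine2, Plau, Plat and Plaur. They encode the cell-bound and secreted proteins that start clotting, restrain it, or turn plasminogen into plasmin. The list starts from Procr, which was taken because its level in MS+ and MS- was already known from these libraries, and the other genes were added for their place in the same 2 pathways. The 9 genes and the lists used below were all chosen with earlier results of these data known. Their p-values take no account of this. The 9 symbols have 11 transcript rows, and each symbol is given by its most abundant row.

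The cells were synovial fibroblast-like cells, which are grown from the joint lining, of 2 female Wistar rats with collagen-induced arthritis (CIA), taken before therapy. The cells of each rat were divided over 3 media, which gave 3 groups of 2 libraries. The FBS group received fetal bovine serum, the MS- group received serum of untreated animals, and the MS+ group received serum of animals after 18 days of mechanical stimulation by needle, named acupuncture in the labels. Every group therefore held cells of the same 2 arthritic, unstimulated animals, and only the serum differed. The number of serum donors is not in the labels. A replicate here is thus a rat whose cells were cultured, and p-values measure the spread between these cultures. In 1 field of the MS- labels the rats are called healthy, while the title and the disease field call them arthritic, and the study's own accounts of the MS- serum differ on whether it preceded therapy or came from CIA animals left untreated.

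Clotting starts when tissue factor (F3) on a cell surface meets activated factor VII from plasma, and the pathway ends in thrombin and fibrin. Tissue factor pathway inhibitor (Tfpi) blocks that first step. Thrombomodulin (Thbd) binds thrombin and turns it into an activator of protein C, and the endothelial protein C receptor (Procr) presents protein C to this complex. Fibrin is later cleared by plasmin, which tissue-type (Plat) and urokinase-type (Plau) plasminogen activators release from plasminogen. Fibrin deposits are a known feature of the arthritic joint.

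Poly(A)-selected RNA was sequenced to 5463316 to 5991889 counted reads per library. Levels are given in CPM, the reads of a row relative to a library size scaled by the TMM method. The floor of detection was set at 3 reads in 1 library, which stood for 0.491 to 0.551 CPM. All 10 fibroblast markers on a short list were over this floor in at least 1 library, although Dcn had 7 reads and Lum 17 reads in all. They summed to 80447 to 87669 CPM in FBS, 62475 to 64790 CPM in MS- and 70477 to 73457 CPM in MS+. In these sums, led by Col1a1 and Col1a2, the groups did not overlap. Col1a1 averaged 37377, 23594 and 27121 CPM in FBS, MS- and MS+. The markers did not share this order, as Vim averaged 11733, 13442 and 15265 CPM and Pdgfrb 2348, 2509 and 2243 CPM. Of 9 endothelial markers, the table held 8, of which 3 were over the floor in any library, and Cdh5, Tie1, Emcn and Cldn5 were at 0 reads in every library. The endothelial sum, almost all from Erg, was 23.4 to 27.2 CPM in FBS, 24.4 to 35.7 CPM in MS- and 9.73 to 14.1 CPM in MS+. Of 10 macrophage markers 3 were over the floor, led by Cd14, with a sum of 13.8 to 14.7 CPM in FBS, 17.2 to 20.5 CPM in MS- and 16.3 to 17.7 CPM in MS+, while Adgre1, Cd163, Ptprc, Itgam, Lyz2 and Aif1 were at 0 reads. None of the 5 platelet markers in the table passed the floor, with sums of 0 to 0.166 CPM in FBS, 0.181 to 0.366 CPM in MS- and 0 to 0.184 CPM in MS+, and Pf4, Ppbp and Gp1bb were at 0 reads. Of the 5 mural cell markers, 4 were over the floor, with Rgs5 at 0 reads and a sum, led by Cspg4 and Myh11, of 2382 to 2690 CPM in FBS, 3192 to 3204 CPM in MS- and 3086 to 3145 CPM in MS+. Of the markers tested, Pdpn was lower than in FBS in both MS+ and MS- (log2 differences of -1.21 and -0.91, limma adjusted p 0.00555 and 0.0139). In MS+, Erg was lower than in FBS (-1.11, limma adjusted p 0.0405) and Myh11 higher (0.55, limma adjusted p 0.0428). The other mural markers tested did not all follow Myh11. Notch3 (-0.83) and Des (-1.24) were lower in MS+ than in FBS and Cspg4 higher (0.23), at limma adjusted p of 0.411, 0.0677 and 0.262. With a term for the rat in the fit, the limma adjusted p was 0.000769 for Notch3 and 0.0118 for Des. The part of these cell types in the results was not tested, and in such bulk libraries fewer cells of a type and less RNA per cell cannot be told apart.

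A feature was tested if some group had both of its libraries at 1 CPM or more. That held for 9820 features, among them 8 of the 9 genes. Plaur did not pass. Differences are on the log2(CPM + 1) scale from limma with culture condition as the only term, and understate the change of low genes. A call means a Benjamini-Hochberg adjusted p under 0.05 over all 9820 features. A 2-fold rule was counted beside it. It asks for an unadjusted p under 0.05, at least a 2-fold change and a mean of at least 1 CPM over the libraries of the 2 groups compared. The 3 comparisons share libraries, so their results are not independent of each other.

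**Figure D1:**
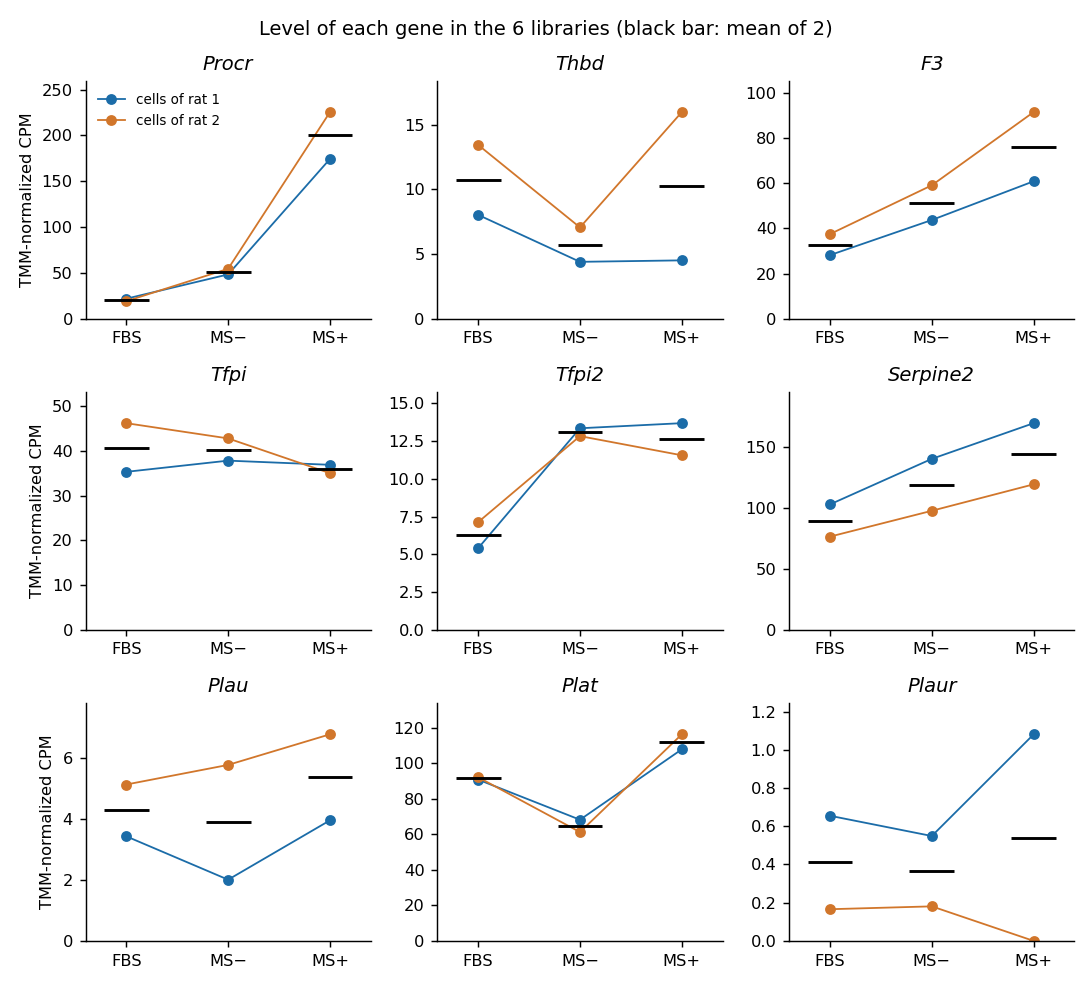
Level of each of the 9 genes in TMM-normalized CPM (vertical axes, each starting at 0) in the FBS, MS- and MS+ libraries. Points joined by a line are the cells of 1 rat (blue, rat 1; orange, rat 2) and black bars are the mean of 2; Procr, F3 and Serpine2 rise from FBS over MS- to MS+ in both rats, and Plat is lowest in MS-.

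Procr, the receptor that binds protein C, had its lowest levels in FBS and its highest in MS+. Procr (NM_001025733, chromosome 3, 146268567 to 146273715 in rn4, plus strand) measured 21.8 and 19.1 CPM in the FBS libraries of rat 1 and rat 2. In MS- it measured 48.3 and 54.4 CPM, and in MS+ 174 and 226 CPM. No 2 groups overlapped. The means were 20.4 ± 1.91 CPM in FBS, 51.4 ± 4.32 CPM in MS- and 200.0 ± 36.2 CPM in MS+ (SD, n = 2 each). The MS+ level was 3.61 times the MS- level in rat 1 and 4.15 times in rat 2, and the log2 difference was 1.93. Levels in these libraries led to the gene being taken, so its differences, those from FBS included, are descriptions and carry no test.

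Both rat sera were above FBS for Procr. In MS- the level was 2.22 times that of FBS in rat 1 and 2.85 times in rat 2, a log2 difference of 1.29. In MS+ it was 8.01 and 11.8 times that of FBS, a log2 difference of 3.22.

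The 300 bases around the Procr start are shown because its level differed between all 3 sera. RefSeq promoter windows, which run from 250 bases before to 50 after the start on assembly GRCr8, were given for 6 of the 9 genes, namely Procr, Tfpi, Tfpi2, Serpine2, Plau and Plaur. The Procr window is chr3:164714477-164714776 on the plus strand. Capitals mark an AP-1 motif (letters TGANTCA), whose first base is at -217 from the start, and the reverse strand of an Sp1 GC box (letters GGGCGG), whose first base is at 29.
Procr: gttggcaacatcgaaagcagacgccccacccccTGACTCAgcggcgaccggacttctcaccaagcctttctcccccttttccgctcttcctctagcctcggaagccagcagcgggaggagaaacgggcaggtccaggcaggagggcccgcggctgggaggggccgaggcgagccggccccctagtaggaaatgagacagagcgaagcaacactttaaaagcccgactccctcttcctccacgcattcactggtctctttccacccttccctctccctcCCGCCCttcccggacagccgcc

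Both strands were searched, also for CRE (TGACGTCA), E-box (CACGTG) and TATA box (TATAAA) letters. An AP-1 motif stood in 3 of the 6 genes' windows (Procr, Tfpi2 and Plaur), and 7.33% of the 33469 windows in the RefSeq table hold one. A GC box stood in those of 5 genes (Procr, Tfpi, Tfpi2, Serpine2 and Plau), and 33.1% of all windows hold one. Serpine2 had 6 GC boxes, some of them adjoining or overlapping, in a window of 77.0% GC. An E-box stood in 1 of the Tfpi windows, against 6.42% of all windows. The CRE letters, present in 1.83% of all windows, and the TATA box letters, present in 14.2%, matched in none of the 6. These are matches of letters, not sites of binding.

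Thrombomodulin, which works beside Procr at the cell surface, had 24 to 87 reads per library and did not follow it. Thbd (NM_031771, chromosome 3, 137158955 to 137162607, minus strand) measured 8.02 and 13.4 CPM in FBS, 4.39 and 7.05 CPM in MS-, and 4.50 and 16.0 CPM in MS+. The MS+ libraries of the 2 rats thus stood on either side of both FBS libraries, and the MS- libraries were below both FBS libraries. The log2 difference between MS+ and MS- was 0.03 in rat 1 and 1.08 in rat 2, and the fitted value of 0.55 had a 95% interval from -0.70 to 1.81. Between MS+ and FBS it was -0.24, with an interval from -1.49 to 1.01. Between MS- and FBS it was -0.79 (limma adjusted p 0.448), and with the rat as a block this difference passed the threshold (limma adjusted p 0.0321). Without MS+ replicate 1 the log2 difference between MS+ and MS- was 1.37, and without MS+ replicate 2 it was -0.26.

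Tissue factor, the initiator of clotting, rose in steps over the sera in both rats. F3 (NM_013057, chromosome 2, 218371050 to 218382645, plus strand) measured 28.2 and 37.5 CPM in FBS, 43.7 and 59.1 CPM in MS-, and 60.9 and 91.6 CPM in MS+. All 3 groups were apart, although the nearest libraries of neighbouring groups, 59.1 CPM in MS- and 60.9 CPM in MS+, came from different rats. MS+ exceeded FBS by 1.18 on the log2 scale (SE 0.24, limma adjusted p 0.0314), with the level at 2.16 times that of FBS in rat 1 and 2.44 times in rat 2. This call was lost when either FBS library or either MS+ library was left out, with log2 differences of 0.89 to 1.47. It was also lost with no filter on low values (limma adjusted p 0.0647).

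The steps between neighbouring sera did not pass for F3 when the spread between rats stayed in the error. They were 0.63 from FBS to MS- (limma adjusted p 0.200) and 0.55 from MS- to MS+ (limma adjusted p 0.365, 95% interval -0.03 to 1.12). With the rat as a block both passed, at limma adjusted p of 0.000718 and 0.00502. The 2 rats gave near values for each step, at 0.62 and 0.64 for the first and 0.47 and 0.62 for the second. With 1 library left out, the first step ran from 0.42 (without MS- replicate 2) to 0.84 (without MS- replicate 1), and the second from 0.26 (without MS+ replicate 2) to 0.84 (without MS+ replicate 1).

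Of the 2 inhibitors named after the tissue factor pathway, Tfpi passed no test and Tfpi2 was higher in both rat sera than in FBS. Tfpi (NM_001177321, chromosome 3, 67661626 to 67699997, minus strand) measured 35.4 and 46.3 CPM in FBS, 37.9 and 42.8 CPM in MS-, and 36.9 and 35.1 CPM in MS+. The log2 differences were -0.16 (MS+ minus MS-), -0.16 (MS+ minus FBS) and -0.01 (MS- minus FBS). Their 95% intervals ran from -0.53 to 0.21, from -0.53 to 0.20 and from -0.37 to 0.36. A second Tfpi row (NM_017200) measured 2.95 to 6.97 CPM and shares 92.7% of the span of the first. Reads that fall on both rows were not counted, so the level of Tfpi is uncertain.

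Tfpi2 encodes a secreted inhibitor of plasmin and other serine proteases in the matrix, and had 33 to 76 reads per library. Tfpi2 (NM_173141, chromosome 4, 28807080 to 28811502, minus strand) measured 5.40 and 7.13 CPM in FBS, 13.4 and 12.8 CPM in MS-, and 13.7 and 11.6 CPM in MS+. Both rat sera were above both FBS libraries and overlapped each other. MS- exceeded FBS by 0.97 (SE 0.19, limma adjusted p 0.0423) and MS+ exceeded FBS by 0.91 (SE 0.19, limma adjusted p 0.0342), while MS+ and MS- differed by -0.05 with a 95% interval from -0.51 to 0.41. Both calls rested on all 6 libraries, since leaving out any one of them ended the call, with log2 differences of 0.79 to 1.14 for MS- and 0.74 to 1.09 for MS+. They were also lost with no filter on low values, with only the 2 groups in the fit and with DESeq2, at adjusted p of 0.0665 to 0.0847.

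The Tfpi2 window (GRCr8, chr4:32941227-32941526, minus strand) is set beside that of Procr because both genes were higher in both rat sera than in FBS. The capitals are an AP-1 motif with its first base at -80 from the start, and the reverse strand of a GC box with its first base at -58.
Tfpi2: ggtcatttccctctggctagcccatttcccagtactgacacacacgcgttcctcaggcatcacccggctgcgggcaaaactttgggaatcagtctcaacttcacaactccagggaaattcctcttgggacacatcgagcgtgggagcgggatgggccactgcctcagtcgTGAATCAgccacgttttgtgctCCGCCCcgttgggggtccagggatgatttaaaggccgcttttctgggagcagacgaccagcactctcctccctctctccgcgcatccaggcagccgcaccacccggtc

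Protease nexin (Serpine2), which inhibits thrombin, urokinase and plasmin at the cell surface, took the same order over the sera as F3 in both rats. Serpine2 (NM_019197, chromosome 9, 79091415 to 79166330, minus strand) measured 103 and 76.3 CPM in FBS, 140 and 97.4 CPM in MS-, and 169 and 119 CPM in MS+. Here rat 1 was the higher of the 2 in every serum, and MS- overlapped both other groups. MS+ exceeded MS- by 0.28 (limma adjusted p 0.658). It exceeded FBS by 0.68 (limma adjusted p 0.126), and MS- exceeded FBS by 0.40 (limma adjusted p 0.406). With the rat as a block the limma adjusted p was 0.0581, 3.9e-05 and 0.00472, so that both differences from FBS passed. With 1 library left out, the difference between MS+ and MS- ran from 0.02 (without MS- replicate 2) to 0.54 (without MS- replicate 1), that between MS- and FBS from 0.14 (without MS- replicate 1) to 0.66 (without MS- replicate 2), and that between MS+ and FBS from 0.42 (without MS+ replicate 1) to 0.93 (without MS+ replicate 2).

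Tissue-type plasminogen activator, a secreted protease that acts on plasminogen bound to fibrin or cells, had its lowest level in MS- and its highest in MS+. Plat (NM_013151, chromosome 16, 73711323 to 73736328, minus strand) measured 90.9 and 92.2 CPM in FBS, 68.2 and 61.3 CPM in MS-, and 108 and 116 CPM in MS+. No groups overlapped, and the order was MS-, FBS, MS+ in both rats. MS- was below FBS by a log2 difference of -0.49 (SE 0.10, limma adjusted p 0.0444). The MS- call was lost without any one of the 6 libraries, with log2 differences of -0.57 to -0.42, with no filter on low values (limma adjusted p 0.0641) and with only the 2 groups in the fit (limma adjusted p 0.0853).

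MS+ exceeded MS- for Plat by 0.78 (SE 0.10), with an unadjusted p of 0.000122 and a limma adjusted p of 0.0917, and the level in MS+ was 1.58 times that in MS- in rat 1 and 1.90 times in rat 2. With the rat as a block the limma adjusted p was 0.000166, and DESeq2 without the block gave an adjusted p of 0.000336. MS+ exceeded FBS by 0.29 (limma adjusted p 0.121, and 0.0384 with the block).

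Urokinase had few reads, and the level of its receptor could not be read from these counts. Plau (NM_013085, chromosome 15, 3680072 to 3686232, minus strand) measured 3.44 and 5.14 CPM in FBS, 2.01 and 5.78 CPM in MS-, and 3.96 and 6.79 CPM in MS+. The lowest of these values rested on 11 reads, for which the exact 95% Poisson interval is 1.00 to 3.60 CPM, counting error only. All groups overlapped, and the log2 differences of 0.46 (MS+ minus MS-), 0.25 (MS+ minus FBS) and -0.21 (MS- minus FBS) had 95% intervals from -0.56 to 1.48, from -0.77 to 1.28 and from -1.23 to 0.82. The urokinase receptor Plaur (NM_017350, chromosome 1, 79708646 to 79712936, plus strand) had 4 and 1 reads in FBS, 3 and 1 in MS-, and 6 and 0 in MS+. The 0 has an exact 95% Poisson upper limit of 0.677 CPM for reads assigned to this row. Its other row (NM_134352) covers 99.95% of its span and had 0 reads in every library. Since reads on both rows were dropped, these counts do not limit the level of Plaur. Among all rows, 52.8% of the 906 that overlap a row of their own symbol were at 0 in every library, against 25.1% of the 16315 others.

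**Figure D2:**
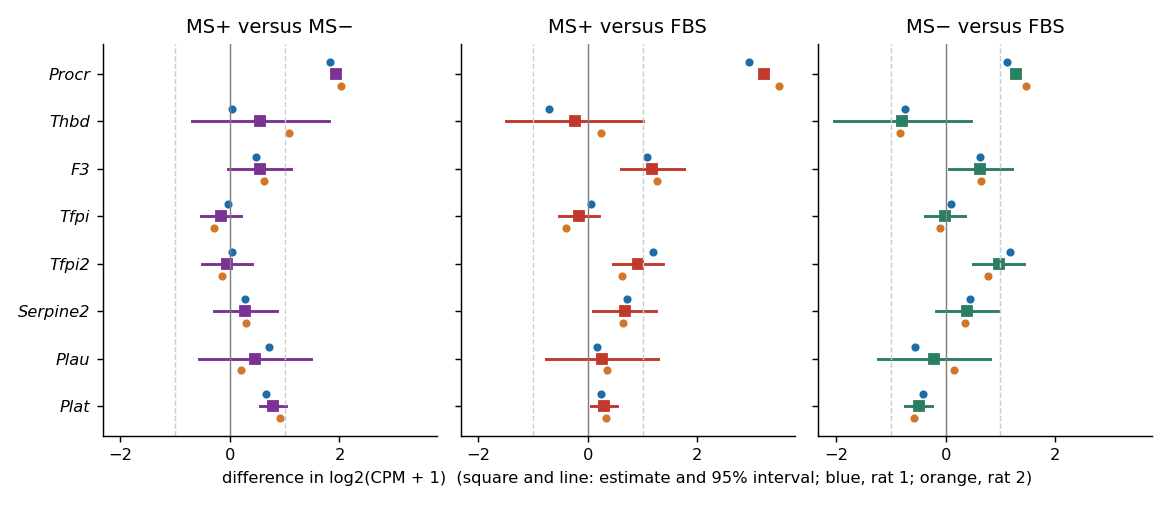
Differences in log2(CPM + 1) for the 8 tested genes in MS+ versus MS-, MS+ versus FBS and MS- versus FBS (squares, fitted value; lines, 95% interval of limma; blue and orange points, rat 1 and rat 2; dashed lines, 2-fold). Procr has no interval because it was taken for its level in these libraries. F3 and Tfpi2 lie above 0 in both comparisons with FBS, and Thbd and Plau have the widest intervals.

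Counts are given for the 7 tested genes other than Procr, since Procr was taken for its level. Between MS+ and MS- the count called was 0 in limma and edgeR and 1 in DESeq2 (Plat). Over all features limma called 0.0204%, edgeR 0.0305% and DESeq2 1.25%. At an unadjusted p under 0.05 there were 1, 1 and 2 genes, for which no share over all features was counted. None of the 7 genes met the 2-fold rule, which 1.24% of all features did. Between MS+ and FBS, 2 genes were higher (F3 and Tfpi2) and none lower, where 4.95% of all features were higher, 4.66% lower and 9.61% called in either direction, and 1 of them (F3) met the 2-fold rule, against 5.3% of features. Between MS- and FBS, 1 was higher (Tfpi2) and 1 lower (Plat), where 2.09% of all features were higher, 2.72% lower and 4.81% called, and none met the 2-fold rule, against 3.62%. The median log2 differences of the 7 genes were 0.46, 0.29 and -0.01 in the 3 comparisons, in the order given, beside -0.01, 0.00 and 0.01 over all features. Procr, left out of these counts, passed both rules in all 3 comparisons, from which nothing is read.

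With the rat as a block the counts were higher, as they were over all features. In MS+ versus MS-, 2 of the 7 genes were called, both higher in MS+ (F3 and Plat), where 5.27% of features were higher and 10.1% called. In MS+ versus FBS there were 4, all higher (F3, Tfpi2, Serpine2 and Plat), where 14.4% of features were higher and 28.2% called. In MS- versus FBS there were 5, of which F3, Tfpi2 and Serpine2 were higher and Thbd and Plat lower, where 10.8% of features were higher, 9.63% lower and 20.5% called. The 2 libraries in a group gave non-overlapping levels with MS+ above MS- for 2 of the 7 genes (F3 and Plat) and below it for 1 (Tfpi), where 22.6% and 23.1% of all features did so. MS+ lay above FBS without overlap for 4 (F3, Tfpi2, Serpine2 and Plat) and below it for none, beside 28.4% and 28.3% of features. MS- lay above FBS without overlap for 2 (F3 and Tfpi2) and below it for 2 (Thbd and Plat), beside 27.1% and 24.5%. The order FBS, MS-, MS+ held in both rats for 2 of the 7 (F3 and Serpine2), and for 10.3% of all features.

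Levels differed between the cells of the 2 rats as well as between sera. Thbd, F3 and Plau were higher in rat 2 in all 3 groups, and Serpine2 was lower, where 21.4% and 21.1% of all features were so. For F3 the level in rat 2 was 1.33, 1.35 and 1.50 times that in rat 1 in FBS, MS- and MS+, and for Serpine2 it was 0.743, 0.696 and 0.704 times. For Thbd the same ratios were 1.67, 1.61 and 3.54, and for Plau 1.50, 2.87 and 1.71. With 1 animal on each side these ratios describe the cultures and carry no test. Procr, Tfpi, Tfpi2 and Plat had no such constant side.

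Most of the other coagulation genes on the list were too low to be tested, and F2r and Pros1 were higher in both rat sera than in FBS. Of 30 listed, 27 were in the table and 9 were tested. Between MS+ and MS- the count called was 0 in limma, edgeR and DESeq2, beside 0.0204%, 0.0305% and 1.25% of all features. At an unadjusted p under 0.05 there were 2, 2 and 1 genes, for which no share over all features was counted. With the rat as a block 1 gene was called, Lman1, which was higher in MS+ (limma adjusted p 0.0170). There 5.27% of all features were higher and 10.1% called. Against FBS, 2 were higher in MS+ and the same 2 were higher in MS-, with no gene lower, beside 4.95% and 2.09% of all features that were higher. F2r, the main thrombin receptor of fibroblasts, measured 773 and 912 CPM in FBS, 1835 and 1743 CPM in MS-, and 1733 and 1702 CPM in MS+. It was higher in MS- than in FBS by 1.09 (SE 0.12, limma adjusted p 0.00543) and in MS+ by 1.03 (SE 0.12, limma adjusted p 0.00684). The first call was lost without MS- replicate 1 and the second without MS+ replicate 1, both at a limma adjusted p of 0.0572. F2r also met the 2-fold rule against FBS in both sera, except without FBS replicate 1 and, in MS+, with library totals as the scaling. Pros1, the cofactor of activated protein C, measured 63.0 and 66.5 CPM in FBS, 100.2 and 114 CPM in MS-, and 111 and 121 CPM in MS+. It was higher in MS- by 0.71 (SE 0.11, limma adjusted p 0.0164) and in MS+ by 0.83 (SE 0.11, limma adjusted p 0.00840). The MS- call for Pros1 was lost without either FBS or either MS- library, and the MS+ call without FBS replicate 1 or either MS+ library. With the block, Lman1 was also higher in MS+ than in FBS (limma adjusted p 0.0219), which made 3 genes higher, beside 14.4% of all features. The median log2 difference of the 9 tested genes was -0.01, 0.20 and 0.10 in the 3 comparisons.

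Among the coagulation genes not called, those with the highest mean CPM serve the modification and export of clotting factors. Lman1, an export receptor of factors V and VIII, measured 187 ± 8.09 CPM in FBS, 179.5 ± 6.91 CPM in MS- and 226 ± 14.3 CPM in MS+. Ggcx, the carboxylase of the vitamin K cycle, measured 122 ± 1.57, 126 ± 8.07 and 125 ± 4.98 CPM, and Vkorc1, the reductase of that cycle, 74.5 ± 0.376, 69.8 ± 5.33 and 86.0 ± 5.75 CPM (SD, n = 2 each). Protein C itself (Proc) and the plasma factors F5, F7, F9, F10 and F11 were at 0 reads in every library. Prothrombin (F2) had 7 reads in all. Factor VIII (F8), named after its values were seen, was the clotting factor that was tested. It measured 54.7 ± 7.19, 57.0 ± 12.3 and 62.4 ± 16.7 CPM in FBS, MS- and MS+ (SD, n = 2 each), with limma adjusted p of 0.666 or more in the 3 comparisons.

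Of the 18 other genes of the plasminogen system analysed, 9 were tested. Between MS+ and MS- the count called was again 0 in limma, edgeR and DESeq2. At an unadjusted p under 0.05 there were 1, 1 and 0 genes, for which no share over all features was counted. Against FBS none was higher and the same 2 were lower in both rat sera, beside 4.66% of all features lower in MS+ and 2.72% in MS-. These were Anxa2 and S100a10, which together form a cell-surface receptor that binds Plat and plasminogen. Anxa2 measured 1054 and 1029 CPM in FBS, 625 and 636 CPM in MS-, and 530.2 and 617 CPM in MS+. It was lower in MS- by a log2 difference of -0.72 (SE 0.11, limma adjusted p 0.0158) and in MS+ by -0.86 (SE 0.11, limma adjusted p 0.00803). S100a10 measured 404 and 428 CPM in FBS, 300.2 and 281 CPM in MS-, and 268 and 253 CPM in MS+. It was lower in MS- by -0.52 (SE 0.09, limma adjusted p 0.0289) and in MS+ by -0.67 (SE 0.09, limma adjusted p 0.00954). Without FBS replicate 1 or without MS+ replicate 1 the MS+ call for Anxa2 was lost, and its MS- call was lost without either FBS or either MS- library. The MS+ call for S100a10 was lost without FBS replicate 2 or either MS+ library, and its MS- call without any one of the 6 libraries or with only the 2 groups in the fit. With the rat as a block the counts in MS+ versus FBS were 2 higher and 3 lower, beside 14.4% and 13.9% of all features. The added genes were Igf2r (limma adjusted p 0.0268), Serpinb6 (0.00744) and Eno1 (0.0272), of which the last is named after its values were seen. The median log2 difference of the 9 genes was -0.02, -0.03 and -0.01 in the 3 comparisons.

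Of the plasminogen genes not called, the 3 with the highest mean CPM are given by their group means. Lrp1, the endocytic receptor that clears activator and inhibitor complexes, measured 1894 ± 128, 2154 ± 28.2 and 2113 ± 165 CPM in FBS, MS- and MS+, and Igf2r, a receptor that binds the urokinase receptor and plasminogen, measured 407 ± 72.1, 463 ± 82.8 and 484 ± 90.5 CPM. Serpinb6, a serine protease inhibitor found mainly inside cells, measured 202 ± 6.57, 235 ± 14.2 and 254 ± 7.44 CPM in the same order (SD, n = 2 each). Plasminogen (Plg) had 10 reads over all 6 libraries.

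**Figure D3:**
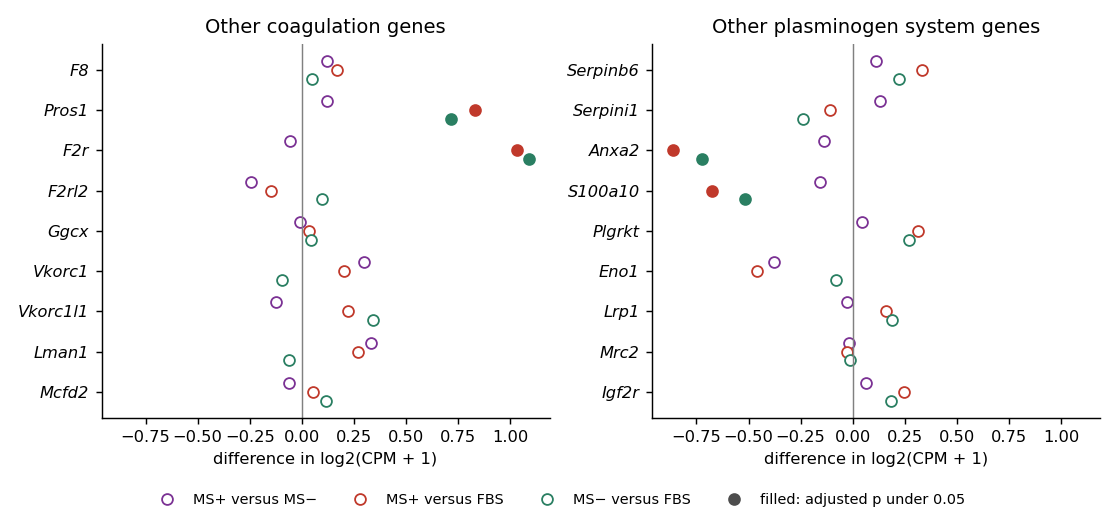
Differences in log2(CPM + 1) for the 9 tested genes of the coagulation list (left) and the 9 of the plasminogen list (right) in the 3 comparisons, by colour. Filled points have a limma adjusted p under 0.05 over all features; the filled ones are F2r and Pros1 above 0 and Anxa2 and S100a10 below 0, all against FBS.

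The features with the profile most like that of Procr over the 6 libraries were Celsr3, Nppc, Glrx, Ednrb and Dpep1, by the distance between centred log2(CPM + 1) values. Pearson's r with Procr was 0.957, 0.961, 0.958, 0.980 and 0.981, over 6 libraries that share 2 rats and 3 sera. Glrx, a glutaredoxin of the cytosol, measured 8.84 and 15.1 CPM in FBS, 29.5 and 39.0 CPM in MS-, and 73.3 and 85.9 CPM in MS+. Dpep1, a dipeptidase anchored in the membrane, measured 2.13 and 1.49 CPM, 3.66 and 5.42 CPM, and 8.65 and 14.1 CPM in the same order. Celsr3, an atypical cadherin, Nppc, the C-type natriuretic peptide, and Ednrb, an endothelin receptor, had FBS libraries at or below 2.16 CPM. In FBS, Nppc (0.327 and 0.166 CPM), Ednrb (0.327 and 0.497 CPM) and, in rat 1, Celsr3 (0.491 CPM) were at or under the floor of 3 reads. Nppc was also at the floor in MS- of rat 2 (0.542 CPM).

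For the other genes the nearest feature was Errfi1, a feedback inhibitor of the EGF receptor, for F3 (r = 0.988), Oxsr1 for Tfpi2 (r = 0.993), RGD1310376 (named Arhgef39 in the newer RefSeq table) for Serpine2 (r = 0.988) and Gja1, a connexin, for Plau (r = 0.980). For Plat it was Wsb1 (r = 0.984), for Tfpi the transcription factor Tcf4 (r = 0.957) and for Thbd the homeobox gene Dlx4 (r = 0.974). Wsb1 measured only 1.45 to 2.94 CPM. Dlx4 measured at most 2.75 CPM and was under the floor in MS+ of rat 1, at 0.180 CPM. The r of Wsb1 and of Dlx4 thus rests on few reads. Errfi1 measured 33.2 and 40.6 CPM in FBS, 50.7 and 63.6 CPM in MS-, and 77.3 and 101 CPM in MS+, the same order of libraries within each rat as F3. These likenesses were picked from 9820 features and describe the 6 libraries only.

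**Figure D4:**
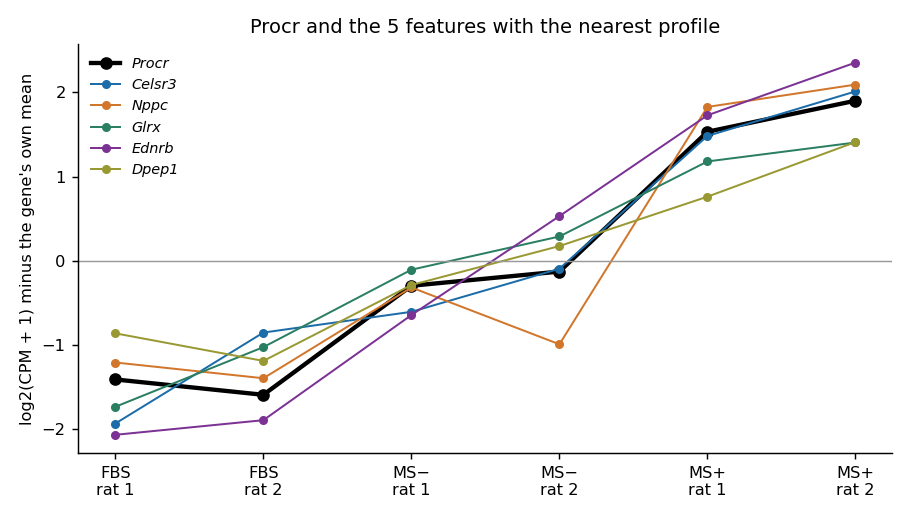
Log2(CPM + 1) minus each gene's own mean (vertical axis) in the 6 libraries (horizontal axis) for Procr, in black, and its 5 nearest features. All 6 lines are lowest in FBS and highest in MS+, and Nppc departs from Procr in MS- of rat 2.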

How the data were processed

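Per the labels and the study's methods, mRNA of 6 cultures was captured with oligo(dT) beads and sequenced on an Illumina instrument. The authors aligned filtered reads to rn4 with Bowtie2 2.1.0, counted them per transcript with HTSeq 0.5.4p3 in intersection-nonempty mode and deposited a normalized signal, CPM on TMM-scaled library sizes. Strand use was not stated. HTSeq drops reads shared by overlapping transcripts. Among the genes from Procr to Plaur named at the start of the Results, this affects Tfpi and Plaur. No row of those genes overlaps a row of another symbol. For the other listed genes, the cell type markers and the nearest features, overlap was not checked gene by gene. Low or absent counts of these may therefore lack shared reads.

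Whole reads were recovered from the deposited CPM; 100% of values per library were whole within 1e-06 reads. The libraries held 5463316 to 5991889 reads. Intervals and floors cover counting error only. Coordinates are rn4, written 1-based; promoter windows and newer names are from RefSeq on GRCr8, where 8 of the 9 genes' rows matched by accession.

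Features with both libraries of a group at 1 CPM (9820) were fitted with limma 3.58.1 (lmFit, eBayes with trend, two-sided, R 4.3.3) on log2(CPM + 1) over all 6 libraries, with condition only, and adjusted by Benjamini-Hochberg. The 2-fold rule uses the thresholds of the study, applied there to limma-voom. Alternatives were the rat as a block, pseudocount 0.1, no filter, other scalings, edgeR 4.0.16, DESeq2 1.42.0, limma-voom, summed rows per symbol, the 2 groups alone, and each library left out. The fits were tried on simulated data with a fixed spread and no difference between rats. That simulation therefore cannot decide between the fits with and without the rat as a block. The replicate numbers pair the libraries, since the labels name the same 2 rats in each group; rat 2 minus rat 1 had a correlation over features of 0.59 for MS+ with MS-, 0.49 for MS+ with FBS and 0.62 for MS- with FBS.

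The 9 genes and all lists were chosen with earlier results of these data known. Named beside them were list genes past either rule in any comparison, otherwise the 3 of each list with the highest mean CPM, and the nearest features by profile (5 for Procr, 1 for each other tested gene). One listed gene is not reported here. Levels were not compared between genes, since lengths were not used.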

Additional observations from a re-analysis of the deposited data

How the results depend on the processing

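Of 408 refitted log2 differences, 341 kept their direction and side of the adjusted threshold, 40 lost the call, 15 gained it and 12 changed sign. The differences of Procr are among them, and its calls carry no test. Tfpi changed sign between MS- and FBS with summed rows (0.013). The other sign changes came from leaving out a library, all in values that were not called. Between MS+ and MS- the ranges were -0.13 to 1.05 for Plau, -0.26 to 1.37 for Thbd and -0.17 to 0.060 for Tfpi2. Between MS+ and FBS they were -1.05 to 0.57 for Thbd (0.10 without FBS replicate 2), -0.35 to 0.025 for Tfpi and -0.073 to 0.58 for Plau. Between MS- and FBS they were -0.20 to 0.18 for Tfpi (0.08 without MS- replicate 1) and -0.79 to 0.38 for Plau (0.03 without FBS replicate 2). The cause was not tested.

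Counting Procr, genes called at adjusted p between MS+ and MS- numbered 1, beside 0.0204% of all features. The number was 3 with the rat as a block (limma or limma-voom), beside 10.1%, and 2 with DESeq2, beside 1.25%. It was 0 with no filter and with the 2 groups alone in limma, where 0 of all features were called. In each of these, 2 genes were at an unadjusted p under 0.05, for which no share was counted. The call was also lost when any one library was left out. Between MS+ and FBS 3 genes (9.61% of all features) became 5 with the block in limma (28.2%). The number was 2 with DESeq2 or with the 2 groups alone, 1 with no filter, and also lower when a library was left out. Between MS- and FBS 3 genes (4.81% of all features) became 6 with the block in limma (20.5%). The number was 2 with DESeq2, 1 with no filter or with the 2 groups alone, and also lower when a library was left out. Against FBS, shares of all features are given for the main fit and the block only, so the lower counts are not read as a result about these genes. Procr was taken for its level and carries no test, but it is in the main counts of all 3 comparisons. The 1 between MS+ and MS- was Procr alone, so the loss of that call tells nothing of the other 7 tested genes. For those 7 the main counts were 0, 2 and 2 in the order given, and 2, 4 and 5 with the block in limma. By the 2-fold rule, Tfpi2 was added against FBS in both rat sera with pseudocount 0.1, edgeR, DESeq2 and limma-voom with and without the block. In MS+ versus MS-, where Tfpi2 was not added, these settings also let more features pass. For the comparisons with FBS no share under these settings is given. Between MS+ and MS- the rule took 1.24% of all features in the main fit and 2.19% with pseudocount 0.1. It took 2.34% with edgeR, 1.59% with DESeq2, 2.17% with limma-voom and 2.79% with limma-voom and the block. With 1 library left out, the log2 difference between MS+ and MS- reached 1.05 for Plau (without MS- replicate 2) and 1.37 for Thbd (without MS+ replicate 1). Beyond the changes given with each gene, the pairing by rat changed no other call. Plau, Plaur, Thbd and Tfpi2 had at most 87 reads in any library. For Thbd the exact 95% Poisson intervals of the MS+ libraries, 2.91 to 6.65 and 12.8 to 19.7 CPM, did not overlap.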
